A study of Solanum virginianum with 36 samples.

Results

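In leaf RNA of eggplant under thrips feeding, 84 gene IDs were higher at 4, 8 and 12 h than at 0, 24 and 48 h in a thrips-resistant line and in a thrips-susceptible line. They were chosen from the measured values themselves. For each line, the 6 time means of log2(CPM + 1) were sorted, and the largest step between neighbours had to separate the 3 times from 4 to 12 h, above, from the other 3, below. CPM are estimated counts scaled to a library size common to all libraries, with TMM factors. Of 85443 IDs in the table, 33340 had a count, 14952 averaged at least 2 CPM in each line and 84 met the rule in both lines, which is 0.562% of the 14952. The rule allowed up to 200 members, so that limit was not reached. For 653 IDs all of the 4 to 12 h means lay above all of the other means in both lines, and the rule further asked that no other step be larger. The opposite rule, lower at 4 to 12 h in both lines, held for 79 IDs.

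Western flower thrips fed on both lines for 0, 4, 8, 12, 24 or 48 h, which with 2 lines and 3 libraries each gives 12 groups. All 36 libraries are labelled as leaf under thrips feeding, those at 0 h included, from greenhouse plants 1 week past transplanting under light for 16 h a day. The labels give neither the names of the lines nor the number of plants in a library, and the organism is labelled Solanum virginianum, although the title of the series names eggplant, a related species. The replicates are called biological, with no word on separate plants, so p-values measure the spread between these libraries, which may be technical. The hour of sampling is not given. The times 0, 24 and 48 h lie whole days apart, and no unfed libraries at 4 to 12 h are among the groups, so feeding time and hour of the day cannot be told apart where 4, 8 or 12 h are compared with each other or with the other times.

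Thrips pierce and empty leaf cells, and wounding of this kind is known to start jasmonate signalling and the synthesis of defence proteins and metabolites, often within hours. Many leaf genes also follow the circadian clock and the light period and come back to the same level after a whole day. No table used here links the IDs to names or functions, so no role is given to any member here, and the leaf label was not checked against marker genes. Gene lists for the clock, light, jasmonate, salicylate, ethylene and quinate pathways were not analysed here for the same reason.

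Depth was similar at all times. Estimated counts over rows with an ID came to 30629392 to 42391553 per library, and the members took 0.281 to 0.820% of them. Other properties of the libraries moved with the same times as the members. Rows without an ID, left out here, held 5.12 to 5.32% of resistant libraries at 4 to 12 h, against 4.46 to 4.71% at the other times. In susceptible libraries they held 5.91 to 7.28% at 4 to 12 h, against 4.71 to 6.04%, with a small overlap. The 50 most abundant IDs of a library held 11.6 to 18.7% of its counts at 4 to 12 h, against 17.5 to 24.7% at 0, 24 and 48 h, in resistant leaves, with a small overlap. Susceptible leaves had 11.3 to 16.7% at 4 to 12 h, against 17.0 to 26.1%, without overlap. TMM factors, which correct for such shifts, were 0.964 to 1.16 at 4 to 12 h, against 0.803 to 1 in the resistant line, and 1.04 to 1.20, against 0.853 to 1.03, in the susceptible line. The part of this shift in the level of the members was not tested, but its weight in their choice could be measured. With library totals in place of TMM, 266 IDs met the rule (75 of the 84 among the first 200). With FPKM as deposited 173 did. FPKM exist for only 10970 of the IDs past the CPM minimum and for 61 of the 84 members. How many of those 61 are among the 173 is not given here. Replicate 3 of the resistant line at 48 h also held counts for IDs that the other resistant libraries lacked. Of 156 IDs with at least 5 CPM in the susceptible line and at most 3 counts in all other resistant libraries together, it held counts for 109, with a median level of 1.25% of that in the susceptible line. These IDs were picked for few counts in the other resistant libraries, so those cannot serve as a comparison on them. The same share of the susceptible level would make up a median of 1.68% of its value for a member and over 5% for 8 members. Without this library 75 IDs met the rule, 69 of them members, within the 66 to 95 found with any 1 library left out.

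**Figure D1:**
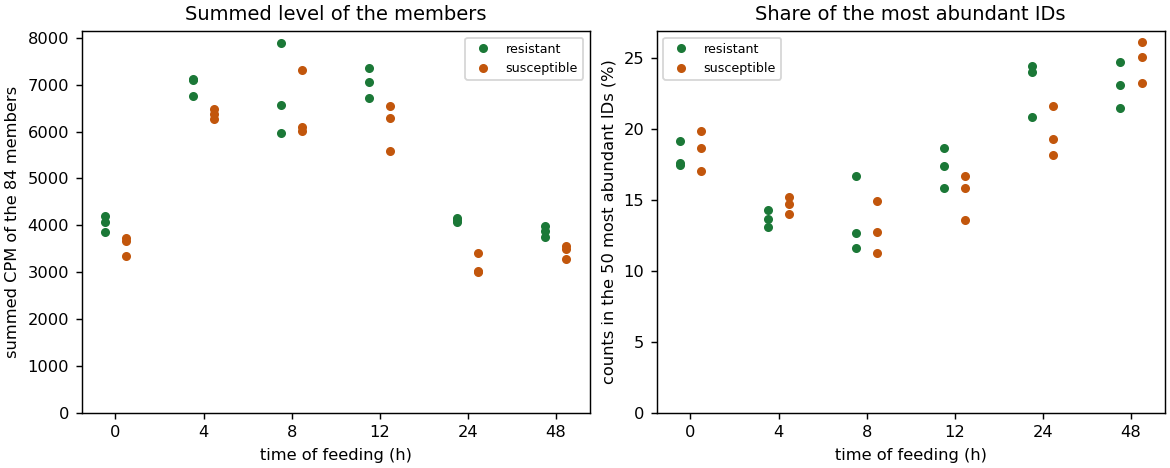
Summed CPM of the 84 members (left) and the percent of counts in the 50 most abundant IDs (right) against time of feeding in hours, 1 point per library, with the resistant line left of the susceptible line. The members' sum lies at 5579 to 7896 CPM at 4 to 12 h and at 3001 to 4205 CPM at 0, 24 and 48 h, while the share of the most abundant IDs runs the other way.

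The summed level of the members was 5968 to 7896 CPM at 4 to 12 h, against 3752 to 4205 CPM at 0, 24 and 48 h, in the 18 resistant libraries. In the 18 susceptible libraries it was 5579 to 7320 CPM at 4 to 12 h, against 3001 to 3721 CPM. The times do not overlap in either line, in the direction that the choice of members fixes. The fitted rise, the mean of 4, 8 and 12 h over the mean of 0, 24 and 48 h, ran from 1.11-fold to 6.81-fold with a median of 1.76-fold in resistant leaves, and for susceptible leaves it ran from 1.10-fold to 13.2-fold with a median of 1.75-fold. At least 2-fold in both lines was reached by 21 members, and 17 stayed under 1.5-fold in both. Over all 23719 genes tested the median log2 rise was 0.00 in the resistant and 0.01 in the susceptible line, and 10.3% and 12.8% of genes passed edgeR's test as higher at 4 to 12 h, 5.15% in both. Of the members 82 passed in both, and since the rule used these contrasts nothing is read from that count. The exceptions were Sme2.5_00173.1_g00020 in the resistant line (edgeR adjusted p = 0.061) and Sme2.5_07040.1_g00003 in the susceptible line (edgeR adjusted p = 0.30).

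**Figure D2:**
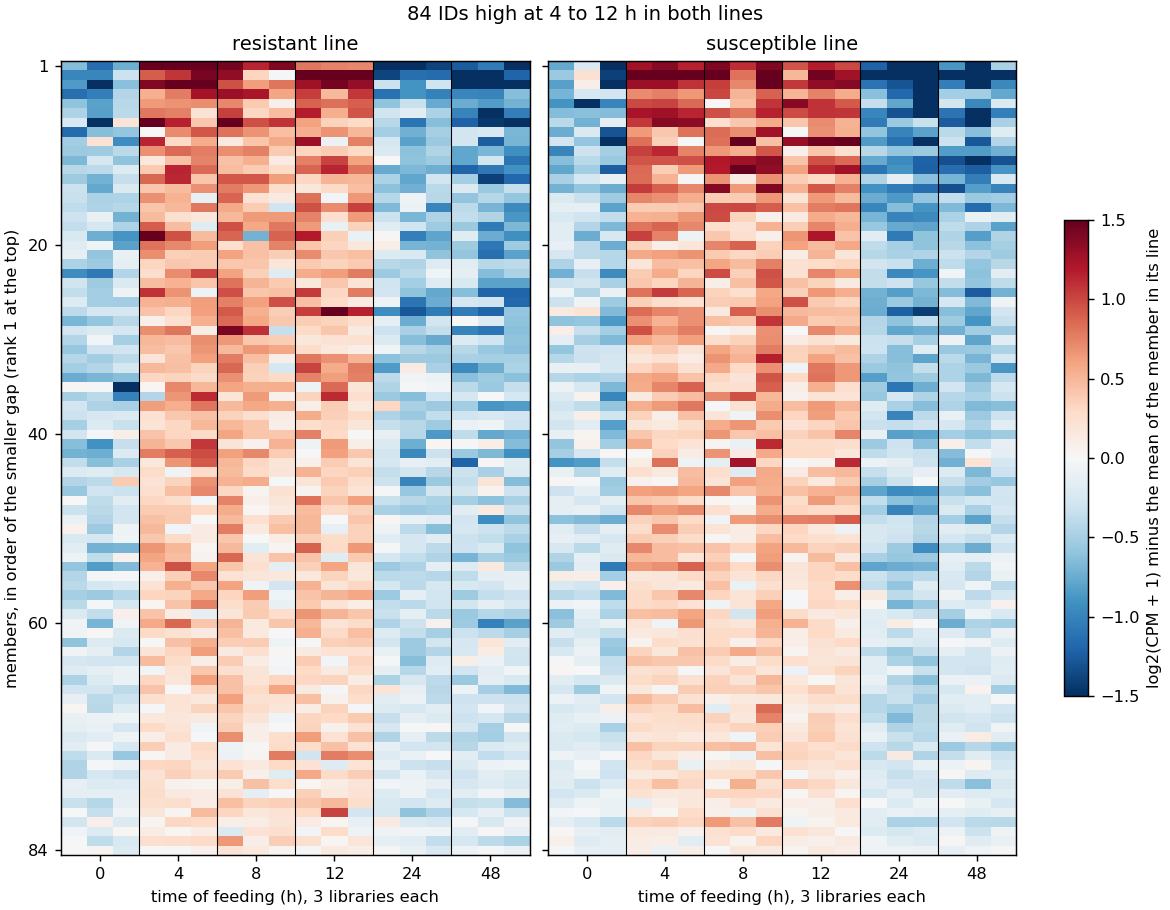
Each row is a member, in order of the smaller of its 2 gaps with rank 1 at the top, and each column a library, for the resistant line (left) and the susceptible line (right). Colour gives log2(CPM + 1) minus the mean of that member in that line, with values beyond 1.5 drawn at the limit. Red fills the 4, 8 and 12 h columns and blue those at 0, 24 and 48 h, fading toward the last of the 84 ranks.

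The member with the largest smaller gap was Sme2.5_00064.1_g00022. Its resistant libraries had 10.5, 7.18, 9.85 CPM (0 h), 70.9, 58.9, 49.6 (4 h), 47.9, 38.9, 46.5 (8 h), 30.2, 29.1, 28.6 (12 h), 5.2, 3.49, 5.88 (24 h) and 6.58, 7.7, 4.61 (48 h). Its susceptible libraries had 24.2, 35.9, 14.2 CPM (0 h), 102, 109, 94.9 (4 h), 112, 91.7, 113 (8 h), 81.9, 95.8, 84.5 (12 h), 17.5, 11.5, 8.43 (24 h) and 22.5, 11.5, 29.7 (48 h). In each line every library at 4 to 12 h stood above every library at the other times, and within the resistant line the 12 h libraries lay below all those at 4 and 8 h. Its gaps were 1.59 in the resistant and 1.87 in the susceptible line (log2).

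The second member was Sme2.5_01800.1_g00005. Resistant leaves held 3.18, 3.2, 5.58 CPM (0 h), 14.5, 16.4, 21.1 (4 h), 19.8, 9.29, 7.19 (8 h), 25.2, 29.8, 31.3 (12 h), 2.18, 2.78, 2.71 (24 h) and 1.57, 1.49, 2.59 (48 h). Susceptible leaves held 5.14, 9.64, 2.43 CPM (0 h), 32.4, 39.6, 33.9 (4 h), 29.5, 14.9, 45.3 (8 h), 11.8, 23.6, 20.6 (12 h), 1.77, 0.966, 1.26 (24 h) and 0.753, 0.836, 1.61 (48 h). The resistant line was highest at 12 h, with no overlap with 4 or 8 h, while in the susceptible line the 4 h libraries lay above those at 12 h. In each line the 8 h libraries of this ID differed most among themselves in CPM.

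**Figure D3:**
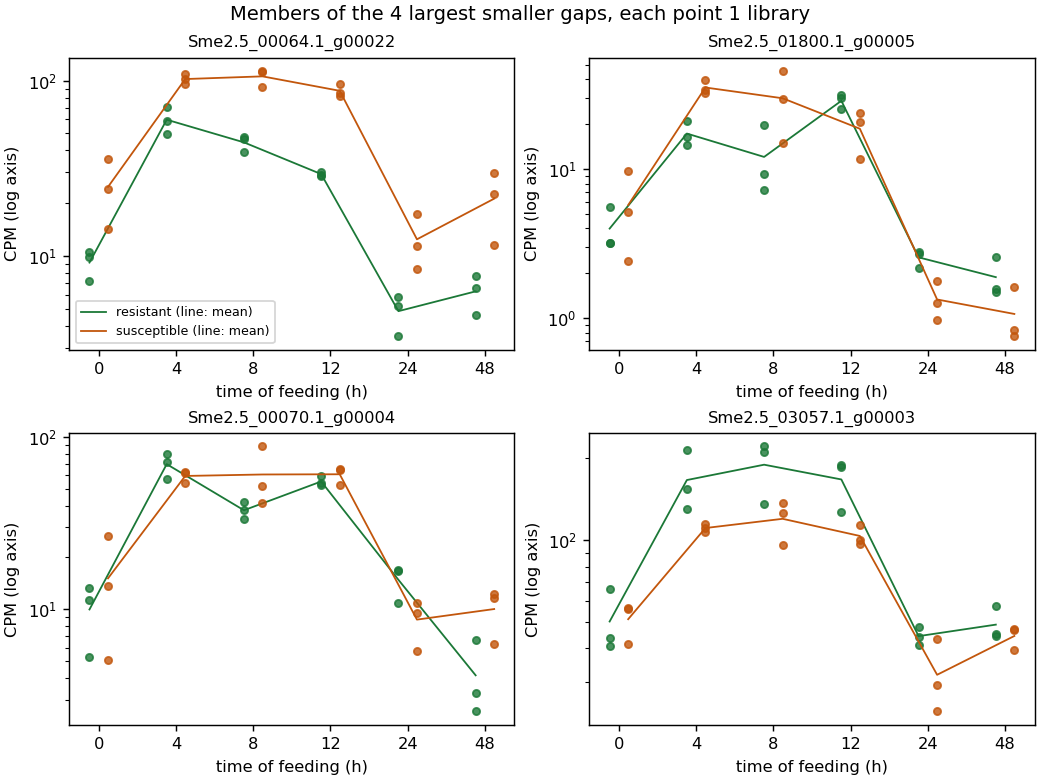
CPM (log axis) against time of feeding in hours for the members of the 4 largest smaller gaps, 1 point per library with lines through the group means, the resistant line left of the susceptible line at each time. In each panel the points at 4, 8 and 12 h stand above those at 0, 24 and 48 h of the same line.

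The other end of the list held small differences. The last member, Sme2.5_00657.1_g00002, had gaps of 0.08 in the resistant and 0.09 in the susceptible line (log2), and its libraries overlapped. Its 18 resistant libraries lay between 91.2 and 122 CPM and its 18 susceptible ones between 56.0 and 69.9 CPM. The members nearest to the edge of the rule were Sme2.5_02871.1_g00001 in the resistant and Sme2.5_09436.1_g00002 in the susceptible line, where each gap was 1.003 times the next largest step. Sme2.5_13278.1_g00001 in the susceptible line and Sme2.5_04360.1_g00004 in the resistant line just missed it, with a gap of 0.996 and 0.995 times their largest step. The lowest member, Sme2.5_02286.1_g00001, averaged 3.08 CPM in the resistant and 2.11 CPM in the susceptible line.

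Not all members kept single libraries apart. All 9 libraries at 4 to 12 h stood above all 9 at the other times for 42 members in resistant leaves (50%), 59 in susceptible leaves (70.2%) and 32 in both (38.1%). Over the 14952 IDs this held for 1.18%, 2.48% and 0.448%, and since the rule used the same contrast, nothing is read from the difference. Replicate 3 of the resistant line at 8 h fell to or below a library of 0, 24 or 48 h for 16 members, more often than the other resistant libraries at 4 to 12 h (4 to 11 members). In the susceptible line replicate 2 at 8 h did so for 10 members, against 1 to 8 for the other libraries at 4 to 12 h.

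The order of the times was then read in libraries that had no part in choosing the IDs. The rule was applied to the libraries of 2 replicate numbers, and the remaining number was set aside for reading. It chose 57 IDs without replicate 1, 80 without replicate 2 and 70 without replicate 3, of which 41, 50 and 44 were among the 84. In the set-aside libraries the values at 4, 8 and 12 h all stood above those at 0, 24 and 48 h in both lines for 37 of 57 IDs (64.9%), 50 of 80 (62.5%) and 49 of 70 (70%). Over all IDs past the CPM minimum the shares were 3.07%, 2.39% and 2.9%. The mean of the 3 high times was above that of the low ones in both lines for 56 of 57, 79 of 80 and 70 of 70 IDs, against 33.1 to 33.5% over all IDs. The median rise in set-aside libraries was 0.73, 0.71 and 0.73 (log2) in the resistant line and 0.65, 0.77 and 0.89 in the susceptible line, against -0.02 to 0.04 over all IDs. The TMM factors were computed over all 36 libraries, those set aside included. The set-aside libraries belong to the same 12 groups, and the replicates may be technical. The shares thus show only how far the order repeated between these libraries, for the IDs chosen each time and not for the 84 as a set. No test was run on these shares.

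**Figure D4:**
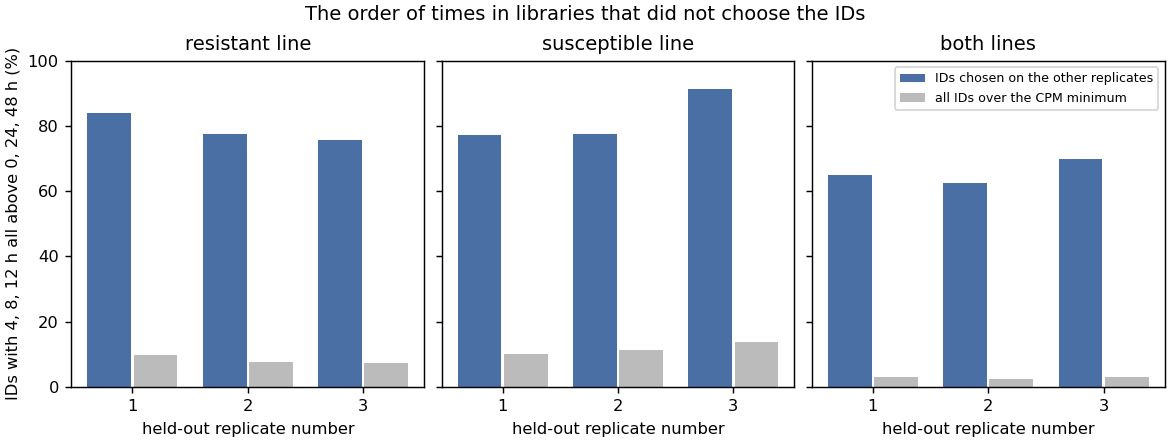
Percent of IDs whose values at 4, 8 and 12 h all stood above those at 0, 24 and 48 h in the libraries of 1 replicate number, for the IDs chosen on the other numbers (blue) and all IDs with a mean of at least 2 CPM in each line (grey), in the resistant line, the susceptible line and both. In both lines the blue bars stand at 64.9, 62.5 and 70% and the grey ones at 3.07, 2.39 and 2.9%.

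The lines could be compared by a test, since the rule compared times within a line and never the lines. It did ask for a mean of at least 2 CPM in each line. Averaged over the 6 times, 48 members stood higher in resistant leaves and 20 lower by edgeR's quasi-likelihood test on all 36 libraries (adjusted p under 0.05), so 81% of the members passed. Of all 23719 genes tested, 69% passed, 32.2% as higher and 36.7% as lower in the resistant line. The members thus passed as higher in the resistant line at 57.1%, and as lower at 23.8%. The genes tested include IDs under the CPM minimum, and no share of calls over the 14952 IDs past it is given. The median log2 difference, resistant minus susceptible, was 0.22 over the members and -0.04 over all genes. The members also had higher levels than the IDs past the CPM minimum, at a median of 40.5 CPM against 25.5 CPM, and a smaller spread between replicates, with a median SD of 0.21 against 0.26 of log2(CPM + 1). What part these properties have in the share that passed was not tested. Of the 68 members that passed, 2 were at least 2-fold higher and 6 at least 2-fold lower in resistant leaves. How many of all genes reached this size is not given, so these counts are not read as a trait of the members. The share that passed was 77.4 to 85.7% with any 1 library left out.

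Of the members that passed, 17 kept the lines apart in every library at each of the 6 times, 9 of them higher and 8 lower in resistant leaves. That is 20.2% of the members (10.7% higher, 9.52% lower), beside 18.1% of all genes tested (7.29% higher, 10.8% lower), a share near that of all genes. The largest differences among them were named. Sme2.5_08552.1_g00002 ran from 64.1 through a median of 84.7 to 131 CPM in the resistant line, against 29.0 through 42.5 to 59 CPM in the susceptible line (18 libraries each). It was 2.02-fold higher in the resistant line (log2 1.01, SE 0.05, edgeR adjusted p = 1.5e-16). Sme2.5_09576.1_g00002 ran from 45.6 through 67.4 to 102 CPM in the resistant line, against 24.1 through 36.0 to 44.4 CPM in the susceptible line. It was 1.94-fold higher in the resistant line (log2 0.96, SE 0.07, edgeR adjusted p = 5.1e-13). For both IDs even the highest susceptible library of the whole course stood below the lowest resistant one.

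In the other direction, Sme2.5_07040.1_g00003 ran from 1.27 through 2.39 to 5.98 CPM in the resistant line, against 18.8 through 21.1 to 26.4 CPM in the susceptible line (18 libraries each). It was 8.76-fold lower in the resistant line (log2 -3.13, SE 0.10, edgeR adjusted p = 1.3e-19). Its rise in the susceptible line was the one that did not pass, where 23.4 ± 1.78 CPM at 4 to 12 h stood against 19.9 ± 0.801 CPM at the other times (SD, n = 9 each). Sme2.5_01013.1_g00011 ran from 18.4 through 45.8 to 97.1 CPM in the resistant line, against 54.2 through 129 to 413 CPM in the susceptible line. It was 3.03-fold lower in the resistant line (log2 -1.60, SE 0.08, edgeR adjusted p = 7.0e-16). All 4 IDs passed under each of 43 alternatives, those without 1 library included. The size of the last 2 depended on the unit. With limma on log2(FPKM + 1) the log2 difference of Sme2.5_01013.1_g00011 was -0.99, and -1.04 with a pseudocount of 0.1. That of Sme2.5_07040.1_g00003 was -2.07 at a pseudocount of 1 and -3.04 at 0.1. Levels are per ID and not per length here.

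Per length, the members spanned a wide range. FPKM were deposited for 61 of the 84, with a mean from 2.45 to 394 FPKM and a median of 17.2, against a median of 11.3 over 10970 IDs past the CPM minimum. The highest, Sme2.5_04303.1_g00005, averaged 394 FPKM. On the CPM scale it ran from 404 through 695 to 917 CPM at 4 to 12 h, against 218 through 329 to 438 CPM at the other times, in the resistant line. Its susceptible libraries ran from 344 through 433 to 580 CPM at 4 to 12 h, against 150 through 192 to 285 CPM at the other times. Only its resistant libraries overlapped between the times. The next, Sme2.5_00858.1_g00005, averaged 303 FPKM. It ran from 168 through 284 to 369 CPM at 4 to 12 h, against 90.4 through 138 to 167 CPM at the other times, in the resistant line, and in the susceptible line from 466 through 589 to 737 CPM, against 231 through 271 to 359 CPM. Its times did not overlap in either line. The length implied by the ratio of counts to FPKM had a median of 0.936 times that of all IDs. The members carried 83 different ID prefixes, and only Sme2.5_01878.1_g00004 and Sme2.5_01878.1_g00006 shared one.

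The size of the rise could differ between lines, because the rule asked for a rise in each line and fixed no sign for their difference. The rises that chose the members also enter the test of that difference, so nothing is read from the share beside that of all genes. The rise was larger in the resistant line for 3 members and in the susceptible line for 6 by edgeR's test (adjusted p under 0.05). Together these are 10.7% of the members, beside 6.2% of all genes (2.89% and 3.31% in the 2 directions). The median difference over the members was 0.02 (log2), and over all genes -0.01. DESeq2 gave 14 members (16.7%, beside 11.2% of all genes), and with any 1 library left out edgeR gave 7 to 10. For the other 75 members a difference was not shown, with a median SE of 0.16 (log2) over the 84.

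Among the members with the larger rise in the susceptible line, Sme2.5_05087.1_g00002 had 27.3 ± 4.08 CPM at 4 to 12 h, against 13.9 ± 2.11 CPM at 0, 24 and 48 h, in the resistant line (SD, n = 9 each). Susceptible leaves had 28.4 ± 6.45 CPM at 4 to 12 h, against 7.14 ± 1.30 CPM (SD, n = 9 each). Its high levels overlapped between the lines, and its low levels did not, with 11.0 to 16.4 CPM in the resistant and 5.09 to 9.23 CPM in the susceptible line. The rise in the resistant line was 2-fold smaller (log2 -1, SE 0.16, edgeR adjusted p = 3.0e-04). Sme2.5_00135.1_g00011 had 18.7 ± 3.93 CPM at 4 to 12 h, against 8.44 ± 2.13 CPM, in the resistant line and 21.0 ± 3.93 CPM, against 4.70 ± 1.67 CPM, in the susceptible line (SD, n = 9 each). Its low levels overlapped between the lines, with 5.24 to 12.4 CPM in the resistant and 2.23 to 7.24 CPM in the susceptible line. Its rise in the resistant line was 2.06-fold smaller (log2 -1.04, SE 0.19, edgeR adjusted p = 9.3e-04).

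Among those with the larger rise in the resistant line, Sme2.5_08535.1_g00001 had 16.9 ± 3.49 CPM at 4 to 12 h, against 6.83 ± 1.51 CPM, in the resistant line and 12.6 ± 2.16 CPM, against 8.14 ± 1.35 CPM, in the susceptible line (SD, n = 9 each). Its rise in the resistant line was 1.62-fold larger (log2 0.69, SE 0.18, edgeR adjusted p = 2.1e-02). Sme2.5_01447.1_g00002 had 70.1 ± 5.71 CPM at 4 to 12 h, against 44.5 ± 4.64 CPM, in the resistant line and 41.8 ± 3.16 CPM, against 35.6 ± 2.24 CPM, in the susceptible line (SD, n = 9 each). Its rise in the resistant line was 1.37-fold larger (log2 0.45, SE 0.09, edgeR adjusted p = 1.7e-03). The lines of this ID overlapped at 0, 24 and 48 h and stood apart at 4 to 12 h, with 60.2 to 78.2 CPM in the resistant and 34.8 to 45.9 CPM in the susceptible line. The differences of these 4 IDs passed under each alternative run for them (40 to 43 each).

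**Figure D5:**
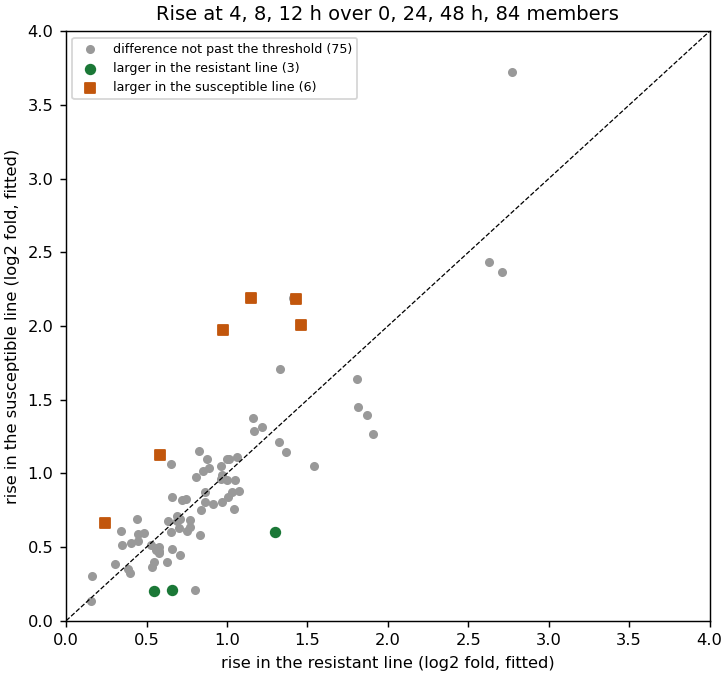
Fitted rise at 4, 8 and 12 h over 0, 24 and 48 h in the susceptible line against that in the resistant line, both as log2 fold, 1 point per member, with a dashed line of equal rise. Of the 84 points, 3 are marked as larger in the resistant line, 6 as larger in the susceptible line and 75 as not past the threshold.

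Within the high times the members showed few changes, which the rule makes likely, because their steps had to be smaller than the gap. Between 4 and 8 h no member passed in the resistant line by edgeR's test (5 at an unadjusted p under 0.05, and none by DESeq2), beside 1.22% of all genes (0.35% higher, 0.869% lower). Susceptible leaves had 2 that rose (2.38%), beside 6.76% of all genes and 3.58% in this direction. Sme2.5_01013.1_g00011 had 296, 413 and 328 CPM at 8 h, against 234, 168 and 202 CPM at 4 h, in the susceptible line (log2 0.78, SE 0.19, edgeR adjusted p = 1.3e-02). Sme2.5_01004.1_g00010 had 64.4, 57.6 and 90.4 CPM at 8 h, against 44.8, 47.0 and 43.3 CPM at 4 h (log2 0.65, SE 0.16, edgeR adjusted p = 1.2e-02). The libraries of the 2 times did not overlap for either ID, and 3 of 14 alternatives ended each call. The count was 1 without replicate 1 or 2 at 4 h or replicate 2 at 8 h, and in the fit of only these 6 libraries 2 other members passed, 1 in each direction.

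From 8 to 12 h 5 members passed in the resistant line (4 higher and 1 lower at 12 h, 5.95%), beside 18.3% of all genes (9.58% higher, 8.68% lower). This count rested on single libraries, since it was 11 without replicate 1 at 8 h, 2 without replicate 3 at 8 h, 1 without replicate 1 at 12 h and 0 without replicate 2 at 8 h or replicate 2 or 3 at 12 h. With FPKM as deposited 2 other members passed, both lower at 12 h. Sme2.5_01800.1_g00005, with the libraries given above, was 2.38-fold higher at 12 h (log2 1.25, SE 0.43, edgeR adjusted p = 4.3e-02). Sme2.5_01385.1_g00004 had 11.4, 17.7 and 12.6 CPM at 12 h, against 10.4, 7.75 and 6.81 CPM at 8 h (log2 0.74, SE 0.26, edgeR adjusted p = 5.0e-02, just under the threshold). The times did not overlap for either ID, and 8 of 11 alternatives ended each call. Sme2.5_04712.1_g00001 had 39.7, 36.6 and 35.1 CPM at 12 h, against 46.2, 51.8 and 49.3 CPM at 8 h, in the resistant line (log2 -0.39, SE 0.13, edgeR adjusted p = 3.2e-02), and 5 of 11 alternatives ended that call. Susceptible leaves had 1 that passed, lower at 12 h (1.19%, beside 1.63% of all genes, 0.805% higher and 0.822% lower), and none without replicate 1 at 8 h or replicate 1 at 12 h. It was Sme2.5_07325.1_g00002, with 45.4, 49.7 and 52.9 CPM at 12 h, against 75, 65.4 and 83 CPM at 8 h (log2 -0.60, SE 0.12, edgeR adjusted p = 1.2e-02).

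The step from 8 to 12 h differed between lines for 5 members, all with the more positive step in the resistant line (5.95%, beside 11.5% of all genes, 6.53% in this direction and 5.02% in the other). The largest was that of Sme2.5_01800.1_g00005, whose libraries are given above (log2 1.94, SE 0.61, edgeR adjusted p = 3.8e-02). Next came Sme2.5_00135.1_g00011, with 21.6, 26.1 and 19.4 CPM at 12 h, against 17.2, 18.4 and 13.6 CPM at 8 h, in the resistant line and 13.6, 20.1 and 18.7 CPM, against 24.0, 25.1 and 26.8 CPM, in the susceptible line (log2 1, SE 0.32, edgeR adjusted p = 4.4e-02). These calls were fragile, as 9 of 17 and 13 of 20 alternatives ended them. The count was 7 without replicate 1 of the resistant line at 8 h and 0 without replicate 1 of the susceptible line at 12 h. It was 1 without replicate 2 or 3 of the resistant line at 8 h, replicate 1 of the susceptible line at 8 h or replicate 3 of the susceptible line at 12 h, and 2 without any 1 resistant library at 12 h or without replicate 3 of the susceptible line at 8 h.

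By group means, the highest of the 3 times was 4 h for 26 members, 8 h for 24 and 12 h for 34 in the resistant line. For susceptible leaves it was 4 h for 30, 8 h for 40 and 12 h for 14. The highest time was the same in both lines for 27 of 84 members (32.1%), beside 35.6% over the 14952 IDs. No test was run on these shares, and few of the differences behind them passed the tests above.

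At the low times, the lowest mean fell at 0 h for 17 members, at 24 h for 25 and at 48 h for 42 in the resistant line. For the susceptible line it fell at 0 h for 12, at 24 h for 49 and at 48 h for 23. The lowest time was 0 h for 20.2% of members in the resistant and 14.3% in the susceptible line, beside 37.1% and 34.3% of the 14952 IDs. It was the same in both lines for 34 of 84 members (40.5%), beside 53.8% of those IDs, and no test was run on these shares. The rule also kept the steps among 0, 24 and 48 h smaller than the gap, so few calls among these times are likely by choice, and nothing is read from a share below that of all genes. The level at 24 h was below that at 0 h in the fit for 67 of 84 members in the susceptible line (median log2 -0.15, beside 0.00 over all genes) and for 45 of 84 in the resistant line (median -0.02, beside 0.00). The share of all genes with a lower level at 24 h is not given, and all members are read in the same libraries. Nothing is therefore read from these counts by sign. By edgeR's test 5 members fell in the susceptible line (5.95%, beside 7.04% of all genes, 3.36% higher and 3.68% lower). Resistant leaves had 1 that rose and 1 that fell (2.38%, beside 8.7%, 4.29% higher and 4.41% lower). In fits of only the 6 libraries compared none passed in either line, and with FPKM as deposited 2 other members passed in the resistant line, both lower at 24 h.

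Sme2.5_01385.1_g00004 was the member that fell in both lines. It had 2.18, 1.51 and 1.89 CPM at 24 h, against 3.62, 4.08 and 4.09 CPM at 0 h, in the resistant line (log2 -1.07, SE 0.27, edgeR adjusted p = 1.1e-02). Its susceptible libraries had 6.63, 4.45 and 3.77 CPM at 24 h, against 13.1, 13.8 and 7.08 CPM at 0 h (log2 -1.18, SE 0.27, edgeR adjusted p = 5.3e-03). In each line the 2 times did not overlap, and 2 of 11 and 1 of 11 alternatives ended the calls. Sme2.5_01800.1_g00005 fell 4.27-fold at 24 h in the susceptible line (log2 -2.09, SE 0.46, edgeR adjusted p = 4.0e-03), in the libraries given above. Sme2.5_04638.1_g00004 rose in the resistant line, with 39.7, 50.4 and 49.2 CPM at 24 h, against 30.7, 32.0 and 33.2 CPM at 0 h (log2 0.54, SE 0.16, edgeR adjusted p = 2.7e-02), and 8 of 14 alternatives ended that call. Counts for the resistant line were 1 without replicate 1 or 3 at 0 h or replicate 3 at 24 h and 0 without replicate 2 at 24 h. Those for the susceptible line were 2 without replicate 2 at 0 h or replicate 2 at 24 h.

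Between 24 and 48 h 2 members fell in the resistant line (2.38%, beside 2.6% of all genes, 1.05% higher and 1.55% lower), and 1 rose in the susceptible line (1.19%, beside 3.54%, 1.77% in each direction). Sme2.5_00070.1_g00004, ranked 3 by its smaller gap, had 6.61, 3.27 and 2.56 CPM at 48 h, against 16.7, 10.9 and 16.9 CPM at 24 h, in the resistant line (log2 -1.82, SE 0.43, edgeR adjusted p = 2.1e-02). Sme2.5_02585.1_g00001 had 32.4, 21.3 and 31.6 CPM at 48 h, against 53.7, 59 and 47.5 CPM at 24 h (log2 -0.89, SE 0.22, edgeR adjusted p = 2.3e-02). In neither ID did the times overlap, and 4 of 14 alternatives ended each call. For Sme2.5_00070.1_g00004 the share of the susceptible level named above would make up 17.5% of its value in replicate 3 at 48 h, more than for the other members. Among susceptible libraries Sme2.5_02687.1_g00001 had 19.9, 26.1 and 25 CPM at 48 h, against 16.9, 13.5 and 14.0 CPM at 24 h (log2 0.68, SE 0.20, edgeR adjusted p = 4.9e-02). That call ended in 7 of 11 alternatives. The count for the resistant line was 0 without replicate 1 at 24 h or replicate 2 at 48 h, 1 without replicate 2 at 24 h or replicate 3 at 48 h, 4 without replicate 3 at 24 h and 5 without replicate 1 at 48 h. For the susceptible line it was 2 without replicate 1 at 24 h and 0 without any other single library.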

How the data were processed

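RNA-seq of 36 leaf libraries was used as deposited. The authors deposited estimated counts in 1 table and FPKM, for the first 65535 of its rows, in another. Per the submitters' processing notes, FastQC and HTSeq 0.6.1 were used, while aligner and genome build are not given in the sources used here. No deposited count of 0 had an FPKM above 0, and in 7936 IDs with a stable ratio of count to FPKM (SD under 0.02 on the natural log scale) a count of 1 stood for a median of 0.337, so the counts were treated as estimates rounded up to whole numbers. The fixed design had assumed tests on counts, and they were run on these whole numbers. Of 89388 rows, 3945 had no ID (4.46 to 7.28% of each library) and were left out of all library totals and fits.

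Tests were made in R 4.3.3 with edgeR 4.0.16 (quasi-likelihood, TMM, filterByExpr, 36 libraries, 1 mean per group, Benjamini-Hochberg over 23719 genes, threshold 0.05). All 84 members passed the filter. SEs come from the F statistic. Alternatives used DESeq2 1.42.0 and its size factors, limma 3.58.1 on log2(FPKM + 1) or log2(FPKM + 0.1), no filter, only the groups compared, a replicate block and each library left out. FPKM scaled by TMM were added after the result was seen. Named are the 2 members of the largest smaller gap, the last, the 2 of the highest FPKM and, per comparison, up to 2 higher and 2 lower that passed without overlap of libraries (for the line average, at every time, and for line differences in a change, with overlap allowed). IDs beyond this rule, those at the edge of the choice, at the lowest level or sharing a prefix, were named after their values were seen. Members and lists were chosen with earlier results of these data known. Scripts were tested on simulated data. No pair of replicates came near counting noise (mean chi-square over genes from 39.0 to 241). Counts give no intervals here, since the spread between libraries exceeds counting error.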

Additional observations from a re-analysis of the deposited data

Results flagged for a closer look

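The lines differed in the size of the rise at 4 to 12 h for 9 of the 84 members, by edgeR's test of the difference itself at an adjusted p under 0.05. The rises of both lines took part in the choice of members, so nothing is read from this count beside all genes. The log2 difference, resistant minus susceptible, was 0.69 for Sme2.5_08535.1_g00001, 0.45 for Sme2.5_01447.1_g00002, -1.04 for Sme2.5_00135.1_g00011 and -1 for Sme2.5_05087.1_g00002. In the last 2 IDs the level at 0, 24 and 48 h stands higher in the resistant line, by means over 9 libraries of 8.44 against 4.70 CPM and 13.9 against 7.14 CPM. Their means at 4 to 12 h were lower in the resistant line, and the low levels of Sme2.5_00135.1_g00011 overlapped between the lines, as given above.

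The lines also differed in the step from 8 to 12 h for 5 members by the same test (5.95%, beside 11.5% of all genes). The log2 differences were 1.94 for Sme2.5_01800.1_g00005 and 1 for Sme2.5_00135.1_g00011. These calls were fragile, since 9 of 17 and 13 of 20 alternatives ended them. With any 1 library left out the count of members was 0 to 7. Outside the IDs compared, 7 of 1148 rows without an ID that averaged at least 2 CPM in each line met the same rule (0.61%), beside 0.562% of the IDs, with smaller gaps of 0.34 to 1.24 (log2).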

How the results depend on the processing

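The number of IDs that met the rule was 66 to 95 with 1 library left out and 69 to 88 under TMM on filtered IDs, DESeq2 size factors, other pseudocounts, other CPM minima and FPKM scaled by TMM, but 266, of which the limit kept 200, with library totals only and 173 with FPKM as deposited. Both FPKM settings covered only the 10970 IDs past the CPM minimum that have FPKM, with 61 of the 84 members among them. TMM factors differ between the 2 sets of times, as given above. Shares in set-aside replicates moved by less than 1.5 times.

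The line average passed for 77.4 to 85.7% of the members with 1 library left out and for 81 to 84.5% under the other alternatives. The line difference in the rise passed for 8.33 to 11.9% with 1 library left out and for 16.7% with DESeq2, and with FPKM as deposited for 1 member higher and 5 lower in the resistant line. Ranges with 1 library left out were 0 to 0% (4 to 8 h) in the resistant and 1.19 to 2.38% in the susceptible line, 0 to 13.1% and 0 to 1.19% (8 to 12 h), 0 to 8.33% (its line difference), 0 to 2.38% and 2.38 to 8.33% (0 to 24 h), and 0 to 5.95% and 0 to 2.38% (24 to 48 h).

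For 8 to 12 h in the resistant line the share was 2.38% with no filter, 9.52% with DESeq2, 3.28% with limma on FPKM at either pseudocount and 1.64% with FPKM scaled by TMM. In the susceptible line it was 0% in the fit of only the groups compared and 2.38% with DESeq2. For its line difference it was 3.57% with no filter and with only the groups compared, 9.52% with DESeq2, 1.64% and 0% with limma at pseudocounts of 1 and 0.1, and 3.28% with FPKM scaled by TMM. Fits of only the groups compared gave 0% for 24 h against 0 h and for 48 h against 24 h in both lines, while DESeq2 gave 10.7% for 24 h against 0 h in the susceptible line and 5.95% and 4.76% for 48 h against 24 h in the resistant and the susceptible line. In the susceptible line 48 h against 24 h also gave 0% with no filter, with limma on FPKM at a pseudocount of 1 and with FPKM scaled by TMM. There limma at a pseudocount of 0.1 gave 1 member, lower at 48 h. For these changes the cause was not tested. With FPKM as deposited at a pseudocount of 0.1, the median of all genes moved by -0.12 for 12 h against 8 h and -0.13 for 24 h against 0 h in the resistant line. No named result changed sign.

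Same-numbered replicates did not deviate together by a cut of 0.1 in the group pairs compared within a line (correlations of -0.29 to 0.47, none of 8 pairs with all above 0.1). The other 58 group pairs, those between lines included, had correlations of -0.37 to 0.37, also with no pair that had all above 0.1. Between 0 and 24 h in the resistant line, however, the correlations were all positive, at 0.07 to 0.29. With the replicate block the shares were 84.5% for the line average and 10.7% for the rise, and no share in the other comparisons moved by over 1.5 times.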
